A study of Rattus norvegicus with 18 samples.

Results

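The comparison described here set whole-brain RNA of the spontaneously hypertensive rat (SHR) against that of the Wistar-Kyoto rat (WKY) at 3 weeks of age. Its members were 3 arrays with the label SHR and 3 with the label WKY at that age, 6 of the 18 arrays in the series, and they were chosen by strain and age alone. The other 12 arrays came from SHR and WKY at 6 weeks and from stroke-prone SHR (SHRSP) at 3 and 6 weeks, in groups of 3. Per the labels, every array was a biological replicate made from a whole brain kept in RNA preservative, no group was treated, and RNA was primed with oligo-dT and labelled with Cy3. The labels give no transgene, deletion or other allele, and the sex of the animals, the colony and the number of brains behind an array are not given in the sources used here.

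SHR and WKY are inbred strains that descend from the same Wistar stock. SHR develops high blood pressure without any treatment as it matures, and WKY is its usual normotensive control. The strains differ at many loci, so a difference between them can come from any of these and not only from those that act on blood pressure. Blood pressure is set in part by the brain, through angiotensin and other peptides that act on the hypothalamus and brain stem, and through vasoactive factors of the cerebral vessels. In RNA from a whole brain, fewer cells of a type and less RNA per cell cannot be told apart.

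The median intensity of the 6 arrays lay between 391.8 and 436.4, between 83.09% and 85.47% of spots were well above background, and no spot was saturated. Levels below are log2 intensities after subtraction of the array's 75th percentile, so a level of 0 is that of a bright probe, and differences are SHR minus WKY on the same scale. The number of arrays limits the precision, and p-values measure the spread between these arrays. The 3 WKY arrays and SHR replicate 1 were on the same slide (slide 1), whereas SHR replicates 2 and 3 were on slide 2 with arrays labelled SHRSP. Slides 1 and 2 carry the same scan day. Each difference was therefore also taken on slide 1 alone, as SHR replicate 1 minus the mean of the WKY arrays, and tested with slide as a fixed block. With this block the estimated difference is the one on slide 1, so it rests on SHR replicate 1 alone among the SHR arrays. That array is also in the fit without the slide, so a pass in both fits is not a pass in independent data. The SHR label itself is uncertain. Serhl2 and Vegfb were low on the arrays labelled SHR at 3 weeks and on those labelled SHRSP at 6 weeks, but not on the other hypertensive groups. Agtrap and Cort, described with their families, had the reverse pattern. At 3 weeks Agtrap differed from WKY by 0.17 for the SHR label and by -3.89 for the SHRSP label, and at 6 weeks by -4.52 and 0.04. For Cort the same values were -0.40 and -1.42 at 3 weeks and -1.91 and -0.27 at 6 weeks. For this reason "SHR" below means the arrays labelled SHR.

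Of 21180 genes tested, 6119 (28.9%) passed limma's test at an adjusted p under 0.05, 2527 higher in SHR (11.9%) and 3592 lower (17%). With slide as a fixed block 1571 (7.42%) passed, and 1318 (6.22%) passed in both fits in the same direction, 615 raised (2.9%) and 703 lowered (3.32%). The median size of the called differences was 0.33. Only 440 called genes (2.08%) reached a 2-fold difference, 82 raised (0.387%) and 358 lowered (1.69%), and 167 of these (0.788%) passed in both fits. Genes called at 2-fold numbered 268 without SHR replicate 2, 268 without SHR replicate 3, 710 without SHR replicate 1 and 168 with the normexp background. The total of called genes was 3871 without WKY replicate 2, 3381 without SHR replicate 2 and 3111 without SHR replicate 3. The groups did not overlap for 38.5% of all genes, with SHR higher in 17.8% and lower in 20.7%, and 40.2% had an unadjusted p under 0.05. Where a gene is said below to have risen or fallen, it passed the fit without the slide. The result with the slide is given beside it or as a count. Counts of list members below stand against 11.9% raised and 17% lowered among all genes. Among the 14457 tested genes with an established symbol, the kind that the lists name, the shares were 13.9% raised and 13.3% lowered.

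The largest difference lay in the growth factor Vegfb, a ligand of the receptor Flt1. Its levels were 0.40, 0.44 and 0.35 in WKY and -9.48, -8.78 and -9.17 in SHR, where none of the arrays measured the probe well above background. The signal of the Vegfb probe was at least 284-fold lower in SHR, with an adjusted p of 4.14e-15 in limma's test. At 6 weeks the difference from WKY was -0.10 for arrays labelled SHR and -9.38 for arrays labelled SHRSP. Only a single probe measured the gene, as with Ptgr1, Serhl2 and Acox2 below. Whether the RNA level or binding to the probe differed was not tested.

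Among genes with an established symbol that were measured on all 6 arrays the largest fall was that of Ptgr1, an oxidoreductase that inactivates prostaglandins and leukotriene B4. Ptgr1 levels were 1.23, 1.31 and 1.26 in WKY and -2.72, -2.63 and -2.56 in SHR. The difference was -3.90 (SE 0.06), a 14.9-fold lower level, and it was -3.99 on slide 1. The arrays of a strain lay close together and the groups were far apart. Serhl2, a serine hydrolase-like protein, had levels of -3.13, -3.01 and -3.14 in WKY and of -4.98, -4.85 and -5.09 in SHR, a difference of -1.88 (SE 0.07).

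The 60-base probes behind 3 of the leading differences are shown because each of these calls rests on a single probe. Positions are those of the files in the rn4 build: the Ptgr1 probe lies at chr5:77010948-77011007, the Serhl2 probe at chr7:121146515-121146574 and the Acox2 probe at chr15:18673090-18673149. No bases are marked in capitals.
Ptgr1: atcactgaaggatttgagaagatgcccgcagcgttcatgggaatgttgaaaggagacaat
Serhl2: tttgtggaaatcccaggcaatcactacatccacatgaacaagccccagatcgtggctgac
Acox2: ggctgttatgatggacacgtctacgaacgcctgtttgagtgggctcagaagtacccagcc

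Several genes best known from liver, pancreas or yolk sac were lower in SHR brain. Alb, which encodes serum albumin, had levels of -1.25, -1.23 and -1.27 in WKY and -5.01, -4.77 and -4.94 in SHR, a 12.6-fold difference. The neighbouring genes Afp, the fetal relative of albumin, and Albfm1, another member of the albumin family, fell as well, by 1.66 (SE 0.17) and 2.08 (SE 0.32). These 3 probes lie between positions 18992807 and 19127039 of chromosome 14 in rn4, and they were the only 3 genes tested in that stretch. Both probes of Albfm1 were lower in SHR, with differences of -2.08 and -1.71. Cyp2c11, a cytochrome P450 of male rat liver that also makes epoxides of arachidonic acid, had levels of -3.28, -3.28 and -3.37 in WKY and -6.36, -5.82 and -6.04 in SHR. Amy1, which encodes amylase, differed by -2.40 (SE 0.21).

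Liver genes as a group did not move together. Of 17 measured genes on the list of secreted liver proteins and liver enzymes, 5 were higher and 5 lower in SHR, and the median difference was 0.06 against -0.01 for all genes. The 5 lower genes were Alb, Afp, Cyp2c11, Amy1 and Apoh, and all passed with slide as a block. Serpina1, the protease inhibitor alpha-1-antitrypsin, rose by 0.62 (SE 0.10) and passed with the slide too. Ahsg, Apoc3, Hp and Rbp4 were the other raised members, and none of these 4 passed with the slide. The raised members numbered 3 without WKY replicate 2 or SHR replicate 2 and 2 without WKY replicate 3 or SHR replicate 3, and Ahsg, Apoc3 and Hp reached adjusted p of up to 0.12, 0.0708 and 0.0782 in such fits. Apoh lost its call without SHR replicate 2, with an adjusted p of 0.0516. Tf, which encodes transferrin and is abundant in brain, differed by 0.06 (adjusted p = 0.273), and Apoa1 was above background on none of the 6 arrays.

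Genes of cell division stood on both sides. Ncaph, a subunit of the condensin complex that compacts chromosomes, had levels of -1.95, -2.05 and -1.95 in WKY and -3.73, -3.75 and -3.68 in SHR. Mcm7, a subunit of the helicase that opens replication origins, had levels of -1.92, -2.13 and -2.14 in WKY and -0.22, -0.05 and -0.08 in SHR. Mcm2, a subunit of the same helicase, rose by 0.25 (SE 0.06) and Rrm1, a subunit of ribonucleotide reductase, fell by 0.28 (SE 0.06). Kif15, a mitotic kinesin, was 3.03-fold higher. In all, 7 of 32 measured genes of replication and chromosome segregation rose and 3 fell, with a median difference of 0.09, and 1 raised and 2 lowered members passed in both fits. The raised members numbered 3 without WKY replicate 2, 2 without SHR replicate 2 and 4 without SHR replicate 3. At 6 weeks Ncaph and Mcm7 differed by -2.14 and 1.92 for arrays labelled SHR and by -1.81 and 2.09 for arrays labelled SHRSP.

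Genes with higher levels in SHR included 2 of lipid metabolism that were close to background in WKY. Acsm5, a mitochondrial enzyme that activates medium-chain fatty acids, had levels of -6.40, -6.16 and -6.29 in WKY and -3.22, -3.03 and -3.05 in SHR, which is 9.08-fold. Its other probe differed by 2.38. Acox2, the peroxisomal oxidase of branched-chain fatty acids and bile acid intermediates, was not well above background in WKY (-8.39, -7.29 and -7.67) and stood at -5.25, -5.54 and -5.23 in SHR. Acox2 was at least 4.38-fold higher. Adtrp, a hydrolase of hydroxy fatty acid esters, was 8.22-fold higher, with levels of -5.92, -6.02 and -5.82 in WKY and -2.89, -2.85 and -2.90 in SHR. The differences of Acsm5, Acox2 and Adtrp on slide 1 were 3.06, 2.53 and 3.03, so SHR replicate 1 stood with the other SHR arrays.

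Immune-related genes were among the raised ones. Ly75, the endocytic receptor DEC-205 of dendritic cells, had levels of -7.37, -7.08 and -7.33 in WKY, where 2 of 3 arrays were well above background, and -4.50, -4.37 and -4.43 in SHR. Chi3l1, a chitinase-like glycoprotein made by astrocytes and macrophages, had levels of -3.67, -3.76 and -3.79 in WKY and -1.78, -1.64 and -1.70 in SHR. Tlr3, the receptor for double-stranded RNA, was 2.99-fold higher and rose on both of its probes, by 1.58 and 1.32. Cd7, a surface protein of T cells, was also 2.99-fold higher. Pira2, an activating receptor of myeloid cells, was not well above background in WKY and was at least 3.37-fold higher in SHR. At 6 weeks the difference of Pira2 was -0.12 for arrays labelled SHR and 2.03 for arrays labelled SHRSP, which is again the opposite label.

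Other raised genes act in glycan synthesis, at the cell surface, in the matrix or in the endoplasmic reticulum. B3galt1, a galactosyltransferase that builds glycan chains, had levels of -2.72, -2.71 and -2.50 in WKY and -0.83, -0.78 and -0.70 in SHR. Boc, a co-receptor of hedgehog signalling that guides axons, was 3.54-fold higher. Ltbp2, a matrix protein of microfibrils, was 3.42-fold higher on the brighter of its probes, and its other probe, near background, differed by 0.75. Tor1b, an ATPase of the endoplasmic reticulum, was 3.09-fold higher. Oxnad1, an oxidoreductase-like protein, was not well above background in WKY and reached -3.79 in SHR replicate 1 but -5.63 and -5.87 in replicates 2 and 3. It was at least 5.81-fold higher, and the SHR arrays differed among themselves by more than those of any gene named in this paragraph.

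**Figure D1:**
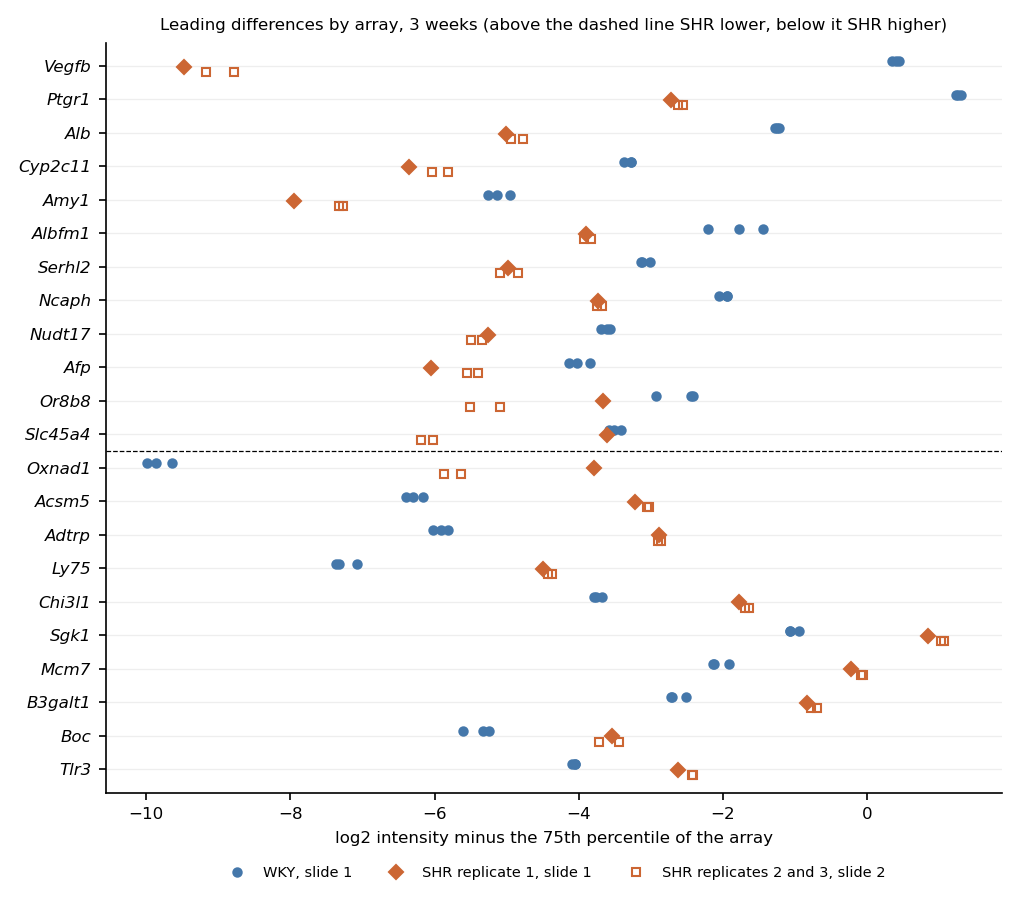
Levels of 22 leading genes on each of the 6 arrays (log2 intensity minus the array's 75th percentile). Filled circles are WKY, the diamond is SHR replicate 1 on the same slide, and open squares are SHR replicates 2 and 3. For Ptgr1 and Acsm5 the diamond lies beside the squares, whereas for Slc45a4 it stands at -3.60 beside the WKY arrays and the squares at -6.18 and -6.02.

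The sign of the large differences was linked to the slide. Of the 358 genes that were at least 2-fold lower, 204 (57%) showed under 0.5 of their difference on slide 1. Of the 82 genes that were at least 2-fold higher, 1 did. Most of the 204 have no established symbol; among the 155 genes with an established symbol and a 2-fold difference 19 behaved in this way, 18 of them lowered, and none passed with slide as a block. Slc45a4, a proton-coupled sugar transporter, had levels of -3.42, -3.51 and -3.58 in WKY, -3.60 in SHR replicate 1 and -6.18 and -6.02 in SHR replicates 2 and 3. Its call was lost without SHR replicate 2 or 3, with adjusted p of 0.0695 and 0.0717 in limma's test. Etv3, a transcriptional repressor, had levels of 1.68, 1.67 and 1.55 in WKY, 1.40 in SHR replicate 1 and 0.01 and -0.13 in the others. Glra1, a glycine receptor subunit of brain stem and spinal cord, and Kcnv2, a modifier subunit of potassium channels, differed by -1.08 and -1.04 over all arrays and by -0.33 and -0.30 on slide 1. The raised exception was Ibsp, a bone matrix sialoprotein, with 1.26 over all arrays and 0.42 on slide 1, and its call was lost without WKY replicate 3 (adjusted p = 0.0523) or SHR replicate 3 (adjusted p = 0.0898).

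**Figure D2:**
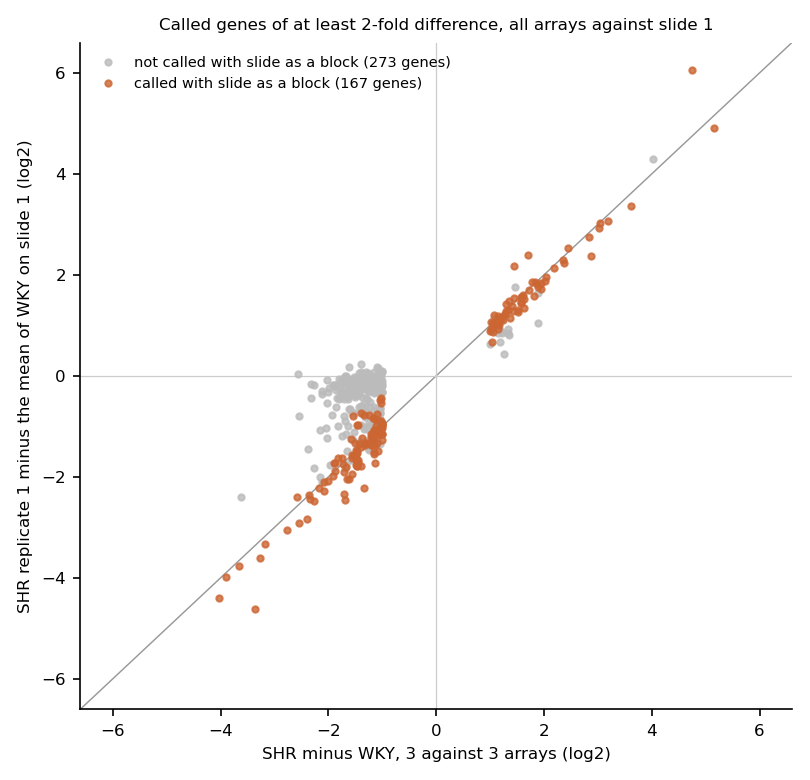
Difference on slide 1 (vertical, SHR replicate 1 minus the mean of WKY, log2) against the difference over all 6 arrays (horizontal, log2) for called genes of at least 2-fold difference; Vegfb lies outside the axes. Orange points (167) were also called with slide as a block and grey points were not; the raised genes lie along the diagonal of equal values, and 204 of the 358 lowered genes kept under 0.5 of their difference on slide 1.

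A short sequence was shared by a small part of the lowered probes that were not called with the slide. The motif GTCTTCC, noticed after the values were seen, was found in 118 of the 21180 probes that represent a gene (0.557%), read 5′ to 3′ on the probe strand. It was in 13 of 252 probes (5.16%) that were at least 2-fold lower and not called with the slide, in 2 of 106 (1.89%) that were 2-fold lower and called with the slide, and in 0 of 82 that were 2-fold higher. Over the 118 probes, 71 genes fell (60.2%) and 4 rose, against 16.7% lowered among probes without it. Their median difference was -0.39 over all arrays and -0.22 on slide 1, against -0.01 and -0.03 for the rest. The reverse complement GGAAGAC, in 160 probes, went with a median difference of 0.03 and 16.9% lowered. The part of this sequence in the differences was not tested.

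The probes of 3 named genes that hold the motif are shown with it in capitals, because their levels on the 6 arrays follow below. Or8b8 encodes an olfactory receptor, Tnfsf8 the ligand of the lymphocyte receptor CD30, and Stfa2l1 a stefin-type inhibitor of cathepsins. The motif starts at base 27, 34 and 31 from the 5′ end. The Or8b8 probe lies at chr8:39287266-39287325 and the Stfa2l1 probe at chr11:66263262-66263321 (rn4).
Or8b8: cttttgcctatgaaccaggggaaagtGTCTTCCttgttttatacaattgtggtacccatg
Tnfsf8: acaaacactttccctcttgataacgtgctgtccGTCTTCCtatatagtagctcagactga
Stfa2l1: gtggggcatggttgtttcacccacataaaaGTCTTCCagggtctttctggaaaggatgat

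Or8b8 had levels of -2.44, -2.41 and -2.93 in WKY and -3.67, -5.10 and -5.50 in SHR, and at 6 weeks the difference was 2.68, with the opposite sign. Tnfsf8 had -2.33, -2.23 and -2.99 in WKY and -3.51, -4.63 and -4.85 in SHR, with 2.29 at 6 weeks. Stfa2l1 had -2.15, -2.03 and -2.54 in WKY and -2.91, -4.20 and -4.49 in SHR, with 2.02 at 6 weeks. For arrays labelled SHRSP the 6-week differences of Or8b8, Tnfsf8 and Stfa2l1 were -0.06, -0.069 and -0.075. In all 3 genes WKY replicate 3 was the lowest WKY array and SHR replicate 1 lay between WKY and the other SHR arrays. None of the 3 passed with slide as a block. Among the genes taken by the naming rule, Agtr1b, described next, and the vascular receptor Notch3 also have such a probe. For Notch3 the difference was -0.89 over all arrays, -0.49 on slide 1 and above 0 at 6 weeks, and it did not pass with the slide. The call of Notch3 was lost in 4 of 6 fits that leave out an array, with an adjusted p of up to 0.112.

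**Figure D3:**
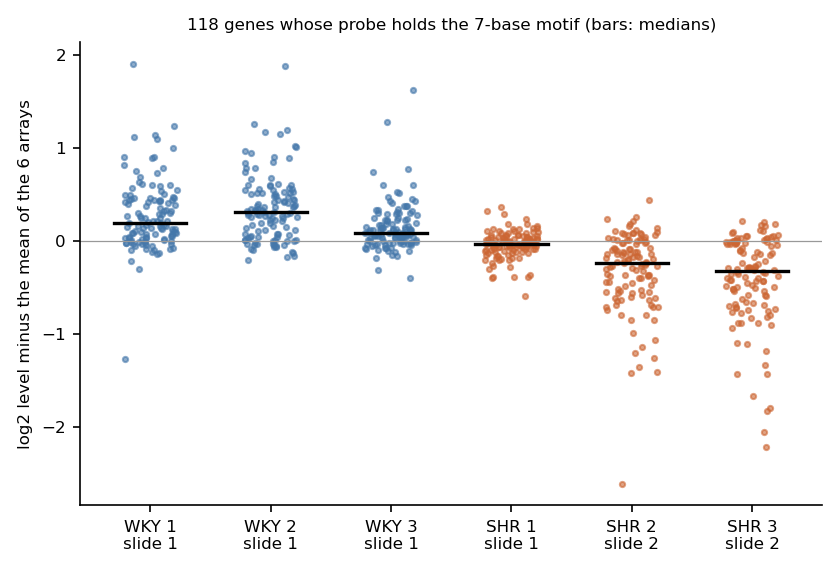
Levels of the 118 genes whose probe holds the 7-base motif, each point a gene on an array, minus its mean over the 6 arrays (log2), with bars at the medians. The medians were 0.20, 0.31 and 0.09 on the WKY arrays, -0.03 on SHR replicate 1 and -0.23 and -0.32 on SHR replicates 2 and 3.

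The renin-angiotensin system converts the precursor angiotensinogen into angiotensin II, which raises blood pressure through its type 1 receptors. Of 20 measured members 4 rose (20%) and 2 fell (10%), against 11.9% and 17% of all genes. Among genes with an established symbol the shares were 13.9% and 13.3%. The median difference was -0.03, against -0.01 for all genes. Without WKY replicate 3, SHR replicate 2 or SHR replicate 3 the raised members numbered 2, and without WKY replicate 1, WKY replicate 2 or SHR replicate 3 the lowered ones numbered 1. Agt, the precursor, had levels of 4.42, 4.41 and 4.33 in WKY and 4.55, 4.63 and 4.57 in SHR. The groups did not overlap and the difference was 0.19 (SE 0.06), but it did not pass with the slide and lost its call without WKY replicate 3 (adjusted p = 0.077) or SHR replicate 2 (adjusted p = 0.0883) or 3 (adjusted p = 0.0596). Ace, the converting enzyme, differed by 0.03 (SE 0.08) and was not called. Cma1, the mast cell chymase that also forms angiotensin II, was not well above background in WKY (-8.57, -9.41 and -9.59) and had -6.82, -6.04 and -6.08 in SHR. Cma1 was at least 2.5-fold higher and passed with the slide (adjusted p = 0.0139).

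The receptors behaved unlike each other. Agtr1a, the type 1 receptor form that prevails in brain nuclei of blood pressure control, differed by -0.07 (SE 0.07; adjusted p = 0.518). Agtr1b, the other type 1 form, had levels of -2.18, -2.13 and -2.53 in WKY, -3.31 in SHR replicate 1 and -4.56 and -5.10 in SHR replicates 2 and 3. Its difference of -2.04 (SE 0.43) came to -1.03 on slide 1 with an adjusted p of 0.164 in the block fit, and its probe holds the motif above. At 6 weeks Agtr1b differed by 2.58, in the other direction, for arrays labelled SHR and by 0.01 for arrays labelled SHRSP. Agtrap, which promotes internalisation of the type 1 receptor, rose by 0.17 (SE 0.05), not with the slide, and the call was lost in 4 of the 6 fits that leave out an array, with an adjusted p of up to 0.0988. Mas1, the receptor of angiotensin 1-7, had -1.59, -1.71 and -1.60 in WKY and -1.77, -1.69 and -1.75 in SHR and was not called.

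Steroid enzymes on the same list showed small differences. Cyp11b1, the 11-beta-hydroxylase of glucocorticoid synthesis and a long-studied gene of rat hypertension, had levels of -2.23, -2.19 and -2.04 in WKY and -1.69, -1.67 and -1.70 in SHR. It rose by 0.46 (SE 0.07) and passed with the slide (adjusted p = 0.0135). Aldosterone synthase, Cyp11b2, differed by -0.01 (SE 0.11). These paralogs are near-identical, so signal could be shared between their probes. Hsd11b1, which regenerates active glucocorticoid, differed by -0.15 (SE 0.05); it passed the test over all arrays, failed it with the slide, and lost the call in 5 of 6 leave-out fits, with an adjusted p of up to 0.192. The mineralocorticoid receptor Nr3c2 was not called.

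Among other vasoactive factors, 6 of 30 measured members rose (20%) and 5 fell (16.7%), against 11.9% and 17% of all genes. The median difference was 0.09. Adm, the vasodilator peptide adrenomedullin, had levels of -2.23, -2.12 and -2.12 in WKY and -1.66, -1.53 and -1.60 in SHR, a difference of 0.56 (SE 0.07) that passed with the slide. At 6 weeks the difference of Adm was 0.60 for arrays labelled SHR and 0.29 for arrays labelled SHRSP. Its receptor Calcrl rose by 0.38 (SE 0.10), without a call in the slide fit and with adjusted p of 0.0621 without WKY replicate 3 and 0.0755 without SHR replicate 2. Npr1, the guanylyl cyclase receptor of natriuretic peptides A and B, rose by 0.36 (SE 0.07) and passed in both fits, whereas its ligand gene Nppa differed by 0.11 (SE 0.08). Ostn, a secreted peptide that binds the clearance receptor Npr3, was not well above background in SHR. Ostn levels were -4.28, -5.33 and -6.27 in WKY and -9.90, -7.79 and -8.26 in SHR, at least 5.51-fold lower, with a spread among WKY arrays of nearly 2 log2 units. Prkg2, the type II kinase that cyclic GMP activates, had -4.88, -4.86 and -4.83 in WKY and -5.60, -5.51 and -5.58 in SHR.

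The endothelin and nitric oxide genes changed less. The receptor Ednra fell by 0.34 (SE 0.06), on both of its probes, and passed with the slide. Edn1, the vasoconstrictor ligand, fell by 0.38 (SE 0.13) and Edn3 rose by 0.22 (SE 0.07); both calls were lost in 4 of 6 leave-out fits, with adjusted p of up to 0.14 and 0.117, and neither passed with the slide. The converting enzyme Ece1 rose by 0.23 (SE 0.05) on the brighter probe, without a call in the slide fit (adjusted p = 0.101 in limma), and its other probe differed by 0.03. The synthases Nos1 and Nos3 differed by 0.10 and 0.03 and were not called. The inducible synthase Nos2 fell by 0.49 over all arrays and by 0.22 on slide 1, without a call in the slide fit. Ddah2, which degrades an inhibitor of these synthases, rose by 0.24 (SE 0.06) but by 0.12 on slide 1, and did not pass with the slide.

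Of the 18 measured genes of VEGF and angiopoietin signalling, Vegfb and Dll4 fell and Tie1 and Pgf rose, and Vegfb and Tie1 passed with the slide. Vegfa, the main angiogenic ligand, had -0.04 (SE 0.05) on its brightest probe and between -0.04 and 0.04 on all 4 of its probes. Its receptors Flt1 and Kdr, which are also markers of endothelium, differed by 0.02 (SE 0.07) and -0.12 (SE 0.09). Tie1, an endothelial receptor of the angiopoietin system, had -4.46, -4.56 and -4.38 in WKY and -3.89, -4.03 and -4.00 in SHR. Pgf, placental growth factor, differed by 0.15 and -0.12 on its 2 probes, and the call on the brighter probe was lost without WKY replicate 2 (adjusted p = 0.128) and without SHR replicate 2 (adjusted p = 0.134) or 3 (adjusted p = 0.105). Vegfc, the ligand of lymphatic vessels, showed the reverse of the usual slide pattern, with -2.37 in SHR replicate 1 against -1.54 and -1.61 in the other SHR arrays and -1.42, -1.49 and -1.41 in WKY. Vegfc passed only with the slide (adjusted p = 6.58e-05), and its adjusted p over all arrays was 0.074.

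Neuropeptides are short signalling peptides, many of which mark classes of inhibitory or hypothalamic neurons. Of 28 measured genes 8 were lower and 4 higher in SHR (28.6% and 14.3%), with a median difference of -0.08 (-0.02 on slide 1), and 3 lower and 2 higher passed in both fits. The lower genes numbered 4 without WKY replicate 3 and 5 without SHR replicate 2 or 3. Sst, somatostatin, which marks a class of cortical interneurons, had levels of 4.39, 4.42 and 4.59 in WKY and 3.84, 3.63 and 3.71 in SHR, a 1.67-fold lower level. Its difference was -0.62 on slide 1 and -0.74 at 6 weeks. Cort, cortistatin, a relative of somatostatin in the same interneurons, had 1.40, 1.46 and 1.57 in WKY and 1.06, 1.06 and 1.12 in SHR. Cartpt, a peptide that curbs feeding, had -0.45, -0.67 and -0.45 in WKY and -0.96, -0.86 and -0.82 in SHR. These 3 passed with the slide.

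The other 5 peptide genes that fell did not pass in the slide fit. Hcrt, the orexin precursor of wake-promoting hypothalamic neurons, had -2.48, -2.60 and -2.63 in WKY and -2.88, -3.11 and -3.11 in SHR. Tac1, Vip, Pdyn and Pnoc, the precursors of substance P, vasoactive intestinal peptide, dynorphin and nociceptin, differed by -0.23, -0.23, -0.29 and -0.29. Each of these 4 lost its call in some leave-out fit, with adjusted p of up to 0.054, 0.0667, 0.0904 and 0.152. For Pnoc SHR replicate 1, at 0.56, lay within the WKY range, and replicates 2 and 3 stood at 0.13 and 0.20.

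The raised peptide genes were Grp, Gal, Avp and Nmb. Grp, gastrin-releasing peptide, had -0.50, -0.47 and -0.30 in WKY and 0.00, 0.06 and 0.08 in SHR, and Gal, galanin, had 0.14, 0.08 and 0.06 in WKY and 0.40, 0.46 and 0.46 in SHR. Both passed with the slide. At 6 weeks the difference of Grp was 0.01 for arrays labelled SHR and 0.57 for arrays labelled SHRSP, and that of Gal 0.11 and 0.52. Avp, the antidiuretic and vasoconstrictor hormone vasopressin, had 0.83, 0.48 and 0.49 in WKY and 1.17, 1.16 and 1.28 in SHR, a difference of 0.60 (SE 0.14) whose adjusted p with the slide was 0.128. Nmb, neuromedin B, did not pass with the slide and lost its call in 4 of 6 leave-out fits, with an adjusted p of up to 0.0943. Oxt, oxytocin, Npy, Pmch and Crh were not called.

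Of 33 measured peptide receptors and binding proteins 4 rose and 4 fell, 12.1% each against 11.9% and 17% of all genes. Both shares were near those of genes with an established symbol, 13.9% and 13.3%. Sstr3, a somatostatin receptor of neuronal cilia, had -0.43, -0.39 and -0.55 in WKY and -0.03, -0.02 and 0.01 in SHR. Galr2, a galanin receptor, rose by 0.38 (SE 0.05). Crhbp, which binds and buffers corticotropin-releasing hormone and is made by somatostatin interneurons among others, fell by 0.41 (SE 0.09). These 3 passed with the slide. Of the 17 measured markers of inhibitory neurons at large 1 rose and 2 fell, with a median difference of -0.04, and the raised one was not called without WKY replicate 2 or 3 or SHR replicate 2 or 3. Of the receptors, 7 rose without SHR replicate 1, and 2 and 1 fell without WKY replicate 1 and SHR replicate 2.

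Genes that glucocorticoids induce stood higher in SHR. These steroids bind a nuclear receptor that switches on a common set of genes in brain, among them Sgk1, Tsc22d3 and Errfi1. Of 23 measured members 11 rose (47.8%) and 3 fell (13%), against 11.9% and 17% of all genes. Among genes with an established symbol 13.9% rose and 13.3% fell. The median difference was 0.20 over all arrays and 0.13 on slide 1, and 8 of the 11 passed with the slide. Between 11 and 14 members rose whichever array was left out. Sgk1, a kinase that regulates ion channels and transporters, had levels of -1.06, -1.07 and -0.95 in WKY and 0.85, 1.07 and 1.03 in SHR. The difference was 2.01 (SE 0.18), a 4.03-fold higher level. At 6 weeks it was 1.55 for arrays labelled SHR and 0.11 for arrays labelled SHRSP.

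Nfkbia, the inhibitor of NF-kappa-B, had -0.80, -0.79 and -0.67 in WKY and 0.15, 0.18 and 0.25 in SHR. Ddit4, an inhibitor of mTOR signalling, had 1.38, 1.37 and 1.42 in WKY and 2.16, 2.16 and 2.19 in SHR, and both of its probes rose. Cebpd, Errfi1 and Bcl6, which encode a transcription factor, an inhibitor of EGF receptor signalling and a repressor, rose by 0.73, 0.72 and 0.71, each by between 0.56 and 0.58 on slide 1. Tsc22d3 (GILZ) and Klf9 rose by 0.46 and 0.36. Pdk4, a kinase that restrains glucose oxidation, was not well above background in WKY and was at least 2.36-fold higher in SHR, with an adjusted p of 0.0528 in the slide fit. Angptl4 and Mt1 rose by 0.71 and 0.31 and did not pass with the slide. Fkbp5, a classical induced gene, differed by 0.15 (SE 0.12; adjusted p = 0.358).

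The 3 members that fell were Nr3c1, the glucocorticoid receptor itself, Cdkn1a and Hif3a, by 0.34, 0.36 and 0.29. Without SHR replicate 2 or 3, 1 member fell. None passed with the slide, and on slide 1 they differed by -0.16, -0.06 and -0.14. The second, dimmer probe of Cdkn1a differed by 0.75, in the other direction. Cdkn1a and Hif3a lost their calls without SHR replicate 2 (adjusted p = 0.0625 and 0.139) and 3 (adjusted p = 0.0676 and 0.112), and Hif3a also without WKY replicate 1 (adjusted p = 0.125) and 2 (adjusted p = 0.083). In RefSeq promoter sequences (GRCr8, 250 bases before to 50 after the start) the glucocorticoid half-site AGAACA, searched on both strands, was in 0 of the 10 raised members that matched and in 20.1% of 27457 promoters, which says only that these letters are not in this window.

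**Figure D4:**
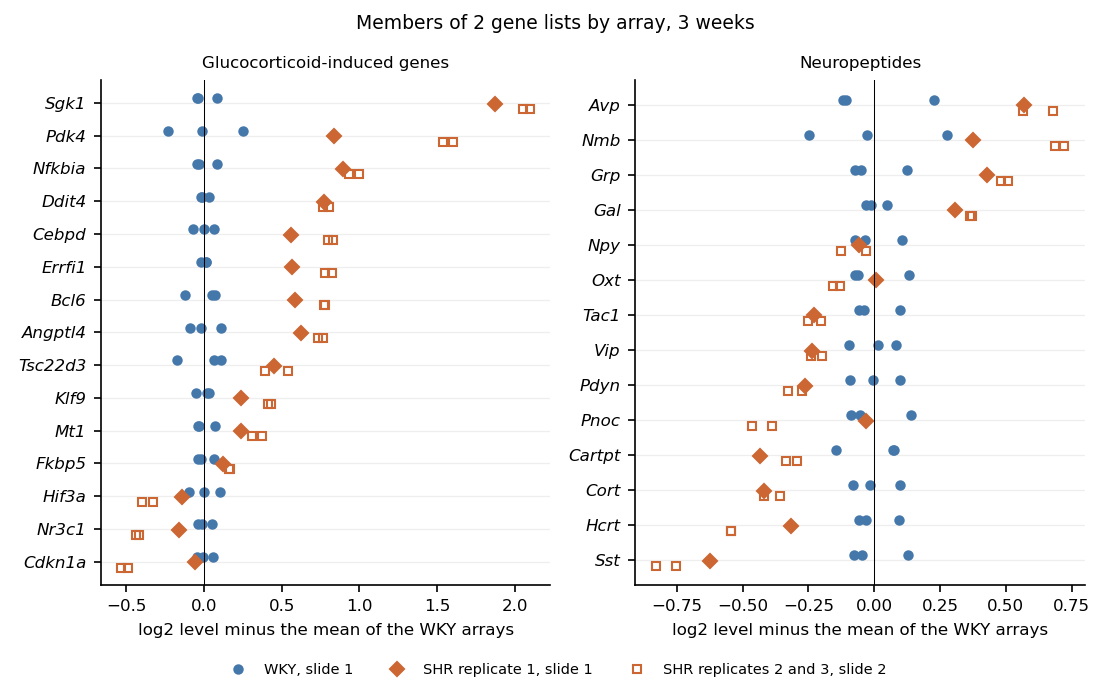
Glucocorticoid-induced genes (left) and neuropeptide genes (right) on each of the 6 arrays, as log2 level minus the mean of the WKY arrays; symbols as in the plot of leading genes. Sgk1 stands at about 2 on all 3 SHR arrays, whereas for Cdkn1a and Pnoc the diamond of SHR replicate 1 lies beside the WKY circles.

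Immediate early genes, which neuronal activity induces within minutes, leaned the other way. Of 27 measured members 8 fell (29.6%, against 17% of all genes) and 1 rose (3.7%, against 11.9%). The median difference was -0.14, and 1 in each direction passed with the slide. Fos had levels of -2.36, -2.22 and -2.35 in WKY and -2.60, -2.91 and -2.81 in SHR, Fosb differed by -0.54 (SE 0.11) and Nr4a1 by -0.51 (SE 0.09). On slide 1 these differences were -0.28, -0.28 and -0.29. Atf3, a stress-responsive factor, fell by 0.60 (SE 0.14). Klf4, a factor of progenitors and endothelium, fell by 0.38 (SE 0.08) and Dusp5, a phosphatase of ERK, rose by 0.59 (SE 0.10); these passed with the slide.

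Eicosanoids are lipid mediators made from arachidonic acid. Of 32 measured genes 11 rose (34.4%) and 7 fell (21.9%), against 11.9% and 17% of all genes, and 5 in each direction passed with the slide. On the side of synthesis, Ptges, the inducible synthase of prostaglandin E2, had -4.62, -4.39 and -4.18 in WKY and -3.60, -3.75 and -3.72 in SHR. Ptgds, the prostaglandin D2 synthase of meninges and oligodendrocytes, had 5.71, 5.77 and 5.63 in WKY and 6.18, 6.30 and 6.20 in SHR. Alox5, the lipoxygenase of leukotriene synthesis, rose by 0.70 (SE 0.12), and Ptgs2, the inducible cyclooxygenase, fell by 0.46 (SE 0.08).

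On the side of breakdown, Hpgd, which oxidises prostaglandins in the step before Ptgr1, had -2.56, -2.61 and -2.60 in WKY and -3.61, -3.51 and -3.41 in SHR. Both Hpgd and Ptgr1 thus fell, and Hpgd differed by -0.78 at 6 weeks. Cyp4f1 and Cyp4f4, which hydroxylate leukotrienes and fatty acids, rose by 0.41 (SE 0.06) and 0.36 (SE 0.06). Of the receptors, Ptger4, which answers prostaglandin E2, was not well above background in SHR (-9.53, -9.41 and -9.03) against -6.86, -6.93 and -7.36 in WKY, and was at least 1.63-fold lower. Each gene with values in these 2 paragraphs passed with the slide.

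Of 38 measured genes of fatty acid activation and oxidation 10 rose and 3 fell (5 rose without SHR replicate 3), and 3 raised members, Acsm5 and Acox2 among them, and the lowered Acaa1a passed with the slide. Acaa1a, a peroxisomal thiolase, fell by 0.43 (SE 0.04) and by 0.29 on its other probe. Cd36, a fatty acid carrier that is defective in some SHR colonies, rose by 0.54 (SE 0.12) on the brighter probe and differed by 0.23 on the other. Its levels were -3.71, -3.76 and -3.82 in WKY and -3.39, -3.14 and -3.16 in SHR, and the adjusted p with the slide was 0.241.

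Detoxifying enzymes split by family member. Of 36 measured genes 11 rose and 5 fell, 5 and 3 of them also with the slide. Gsta1, a glutathione transferase of the alpha class, fell by 0.54 (SE 0.05), whereas Gstt1 and Gstt3 of the theta class and Gstm1 of the mu class rose by 0.54 (SE 0.05), 0.56 (SE 0.08) and 0.23 (SE 0.04). Gstm1, a candidate gene of rat hypertension, had 1.17, 1.15 and 1.16 in WKY and 1.36, 1.38 and 1.43 in SHR. Transferases of the same class are near-identical and their probes could share signal. Cat, which encodes catalase, rose by 0.68 (SE 0.10), and Prdx6, a peroxidase of phospholipids, fell by 0.33 (SE 0.05). Among candidate genes of hypertension, Endog, a mitochondrial nuclease linked to heart mass in SHR crosses, had 0.02, 0.04 and 0.10 in WKY and -0.41, -0.41 and -0.37 in SHR, and it passed with the slide.

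The tissue was checked against cell type markers. Mbp, the myelin basic protein gene, stood between 7.26 and 7.35 on all 6 arrays and Ttr, the choroid plexus carrier transthyretin, between 6.99 and 7.23. Oligodendrocyte and myelin genes leaned upwards in SHR: 9 of 18 measured rose (50%) and 1 fell (5.56%), against 11.9% and 17% of all genes. In both fits 5 rose, and the median difference was 0.16 and 0.10 on slide 1. With single arrays left out between 5 and 8 members rose, the fewest without WKY replicate 2. With the median over the probes of a gene 7 members rose and 3 fell. Cldn11, a tight junction protein of myelin, had 0.54, 0.35 and 0.55 in WKY and 1.20, 1.17 and 1.20 in SHR. Tspan2, Ppp1r14a and Mag rose by 0.43 (SE 0.05), 0.32 (SE 0.04) and 0.24 (SE 0.06). Mbp, Mog and Cnp, which encode major myelin proteins, differed by 0.00 (SE 0.06), 0.10 (SE 0.07) and -0.03 (SE 0.07). The probes of Mobp disagreed, with 0.48 on the probe that stands for the gene, -1.83 on another and a negative value on the third, and the call did not pass with the slide.

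Markers of meninges and fibroblasts rose in 8 of 17 cases and fell in none, with a median difference of 0.21 and of 0.26 on slide 1, and 5 passed with the slide. Without WKY replicate 3 or SHR replicate 2, 5 members rose. Their summed level, in units of the array's 75th percentile, was 77 to 82.63 in WKY and 103.5 to 111.1 in SHR. Most of that gap was Ptgds: without it the sum was 27.38 to 28.13 in WKY and 30.22 to 32.99 in SHR. Slc6a13, a transporter of meningeal fibroblasts, had -2.13, -2.16 and -2.17 in WKY and -1.66, -1.58 and -1.67 in SHR. Col3a1 and Igf2 rose by 0.41 (SE 0.06) and 0.24 (SE 0.05). The list shares Ptgds, its brightest member, with the eicosanoid list and the labels do not say whether the meninges were kept. The part of the meninges in the differences was not tested.

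Microglial genes rose in 6 of 15 cases (40%, against 11.9% of all genes), none of them with the slide. The raised count was 3 without WKY replicate 2 or 3 or SHR replicate 2 or 3. Tmem119 and Trem2 rose by 0.67 (SE 0.14) and 0.44 (SE 0.08). P2ry12, a receptor of resting microglia, fell, with 0.59, 0.62 and 0.55 in WKY and 0.00, 0.31 and 0.25 in SHR, and it did pass with the slide. None of the 16 choroid plexus genes was called, with a median difference of -0.19 and of -0.33 on slide 1, where 1 of the 16 lay above 0. Of all 21180 genes 8851 lay above 0 on slide 1. In a fit of the 9 arrays of 3 weeks 3 choroid plexus genes were called lower. Clic6, a chloride channel of that epithelium, had a difference of -0.59 (adjusted p = 0.0586 in limma).

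Pituitary genes varied widely between arrays of a strain. Their summed level was 29.37 to 30.62 in WKY and 27.64 to 34.01 in SHR. Cga, the subunit that pituitary glycoprotein hormones share, had -6.83, -6.77 and -8.37 in WKY and -3.03, -2.88 and -4.01 in SHR, a difference of 4.02 (adjusted p = 0.0157 in limma's test). It did not pass with the slide (adjusted p = 0.153) and lost its call without WKY replicate 3 (adjusted p = 0.0556) or SHR replicate 2 (adjusted p = 0.0584). Gh1, growth hormone, ranged from -2.46 to -8.42 within SHR and Pomc stood at 2.45 in SHR replicate 2 against -1.14 and -0.87 in the other SHR arrays. How much pituitary tissue went with each brain was not tested.

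Genes of MHC and antigen presentation rose in 9 of 27 cases (33.3%) and fell in 2 (7.41%), against 11.9% and 17% of all genes. None passed with the slide. Cd74, the invariant chain of class II molecules, and RT1-Da, a class II chain, rose by 0.53 (SE 0.13) and 0.42 (SE 0.10). The raised count of this list fell to between 2 and 5 when any array other than SHR replicate 1 was left out. Of 25 interferon-response genes none rose and 1 fell. Genes of ion transport and blood pressure control fell in 8 of 36 cases (22.2%, against 17% of all genes), none with the slide, and 2 rose, both also with the slide. The lowered members numbered 3 or 4 without WKY replicate 1 or 2 or SHR replicate 2 or 3. Wnk4, a kinase that regulates sodium chloride transport, had -2.77, -2.69 and -2.73 in WKY, -2.90 in SHR replicate 1 and -3.76 and -3.73 in the other SHR arrays.

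Endothelial markers moved in both directions, with 5 of 16 higher (31.2%) and 3 lower (18.8%) in SHR, against 11.9% and 17% of all genes. Slc2a1, the glucose transporter of the blood-brain barrier, had 1.95, 1.94 and 2.01 in WKY and 2.38, 2.54 and 2.58 in SHR, and Tfrc, the transferrin receptor, had 0.75, 0.80 and 0.61 in WKY and 0.23, 0.42 and 0.34 in SHR. Both passed with the slide, whereas Cdh5, the cadherin of endothelial junctions, differed by -0.45 over all arrays and by -0.19 on slide 1, and did not pass with it. The higher members numbered 2 without WKY replicate 2 or SHR replicate 2 or 3 and 3 without WKY replicate 3. Of 20 clock genes 4 rose and 2 fell. Ciart, a repressor of the clock, had -3.85, -3.85 and -3.55 in WKY and -4.36, -4.39 and -4.50 in SHR, and Nfil3, a repressor of the same output genes that DBP activates, rose by 0.44 (SE 0.07). Of 24 genes of cholesterol synthesis 6 rose and 3 fell, among them Tm7sf2, a sterol reductase, by 0.41 (SE 0.06), and Sqle, squalene epoxidase, by -0.25 (SE 0.04). In each of these 2 lists 1 raised and 1 lowered member passed with the slide, Nfil3 and Ciart for the clock and Tm7sf2 and Sqle for cholesterol synthesis. The raised clock genes numbered 2 when the third array of either strain was left out, and the lowered 1 without WKY replicate 2 or SHR replicate 2 or 3. Raised genes of cholesterol synthesis numbered 3 without WKY replicate 2 and 2 without SHR replicate 2 or 3.

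**Figure D5:**
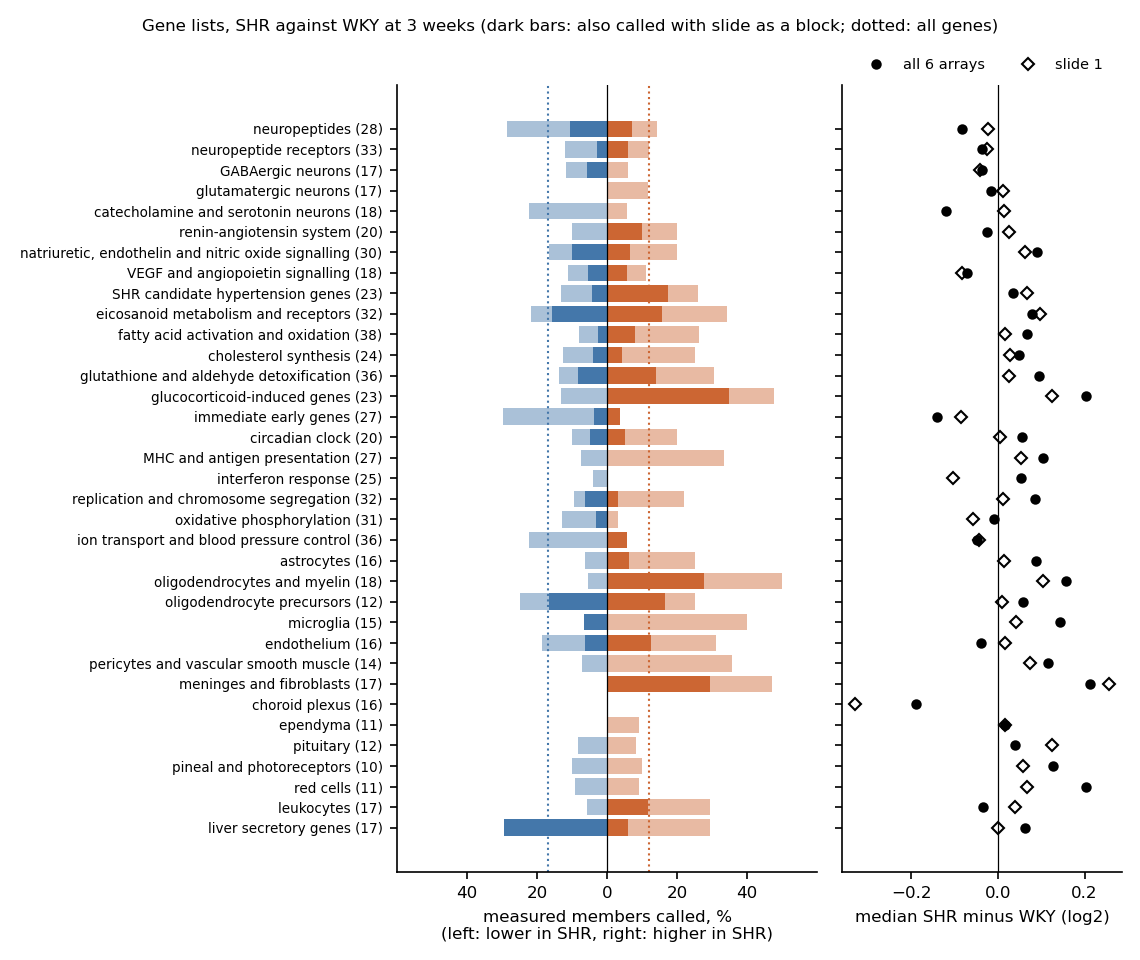
Gene lists in SHR against WKY at 3 weeks. Left, percent of measured members (number in brackets) called lower (blue) or higher (orange), dark where also called with slide as a block, with dotted lines at 17% and 11.9% for all genes; right, median difference over all arrays (dots) and on slide 1 (diamonds). Among genes with an established symbol 13.3% were lower and 13.9% higher. The raised share was largest for oligodendrocyte (9 of 18), glucocorticoid-induced (11 of 23) and meningeal genes (8 of 17). The oligodendrocyte count was 7 of 18 with the median over the probes of a gene.

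The differences of 47 leading genes, those with the largest changes by the rule in the methods, were set beside those at 6 weeks, measured in other animals. For 34 of the 47 the arrays labelled SHR at 6 weeks differed from WKY in the same direction and passed, where 41.4% of all genes passed in either direction. The difference between the ages passed limma's test in 23, against 39.7% of all genes. For Boc, Nudt17 and Amy1 that difference was not called. Nudt17, a nudix hydrolase, differed at 3 and 6 weeks by -1.75 and -1.79, Boc by 1.82 and 1.93, and Amy1 by -2.40 and -2.39. Cyp2c11 was closer to WKY at 6 weeks, with -1.13 against -2.77 (adjusted p of the difference between ages 4.37e-05). B3galt1 differed by 1.04 at 6 weeks against 1.87 at 3 weeks (adjusted p = 0.000183). The SHR arrays of 6 weeks were alone on their slide, so slide and group cannot be told apart at that age.

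The called genes lay on all chromosomes. By the positions in the files (rn4), the share of genes called in both fits was highest on chromosome 13 (9.91% of 636) and chromosome 16 (9.55% of 576) and lowest on chromosome X (3.22% of 807), against 6.22% overall. Stretches were sought among 299 genes with an established symbol, called in both fits with at least a 1.5-fold difference. Stretches of 3 or more such genes, each within 1 Mb of the next, numbered 17 and held 61 of the 299. The number to expect from gene density alone was not tested. Some stretches were sparse and mixed in direction, with 5 of 91 tested genes on chromosome 1 (2 raised, 3 lowered) and 7 of 53 on chromosome 2 (3 raised, 4 lowered). Besides the albumin genes, a stretch of chromosome 10 from 71645984 to 72005339 held the chemokine genes Ccl9 and Ccl6 and the neighbouring Heatr6, all lower in SHR, 3 of 4 tested. Ccl9 had levels of -3.63, -3.47 and -3.65 in WKY and -4.55, -5.26 and -5.38 in SHR, and Ccl6 differed by -0.78 (SE 0.12). A cluster of protease inhibitor genes on chromosome 6 (127999839 to 128469256) held 4 called genes of 7 tested, of which Serpina4 and Serpina1 rose by 1.06 (SE 0.07) and 0.62 (SE 0.10), and Serpina3n and Serpina5 fell by 1.17 (SE 0.13) and 0.81 (SE 0.16).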

How the data were processed

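Total RNA of whole brains had been labelled with Cy3 and hybridised to 1-colour Agilent arrays, and spots were quantified with Agilent Feature Extraction 10.5.1.1, per the submitters' processing notes. The deposited scanner files give the processed signal as an intensity per spot on a linear scale, background-subtracted and not scaled between arrays per the file headers, and the deposited series table holds the same values. From these the log2 of the intensity minus that of the array's 75th percentile was computed. Spots flagged as outliers were left out and spots of a probe averaged. Of 30367 probes, 24282 were kept because every array of at least 1 of the 6 groups had them well above background (on an array, in over 50% of a probe's spots), and the brightest probe stood for each of 21180 genes. Names came from the RefSeq rat tables by accession for 17673 probes, by symbol for 2510 and by synonym for 700, and 9484 kept the name in the files.

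All 18 arrays were fitted with limma 3.58.1 in R 4.3.3 (6 group means, eBayes, Benjamini-Hochberg over all genes, call at adjusted p under 0.05), without and with slide as a fixed block. Bounds ("at least N-fold") set the bright group's mean against the lowest signal among well measured probes of each array, or the dim probe's own where higher. On simulated data for SHR against WKY at 3 weeks with 21180 genes, 67 of 100 genes were called at a log2 difference of 0.5 and 90 of 100 at 1, with 4 false calls. The simulated arrays had independent noise and no slide effect. The false calls therefore do not cover differences between slides in the real arrays. Correlations of deviations between arrays of the same replicate number were -0.03, -0.05 and 0.07, so the numbers did not pair the arrays. The rule for named genes took the 15 largest called differences each way among genes with an established symbol. These had to be well above background on all 6 arrays, with groups that did not overlap. From established symbols it also took up to 6 bounds each way and the 10 largest differences each way on slide 1 among genes called in both fits. It further took up to 6 called members of each list (2 brightest if none) and every member of the angiotensin, vasoactive, VEGF and neuropeptide lists. Genes without an established symbol, such as RGD1562742 with a difference of -4.04, were not taken. Tsc22d3, Klf9, Mt1, Angptl4, Nr3c1, Cdkn1a, Hif3a, Fkbp5, Ptgs2, Alox5, Cyp4f4, Ahsg, Apoc3, Apoh, Hp, Tf, Apoa1, Atf3, Ccl6, Ccl9, Heatr6, Serpina4, Serpina5, Serpina3n, Gh1, Etv3, Glra1, Kcnv2, Ibsp, Mog, Mbp, Cnp and Clic6 were added after their values were seen. The members, genes and lists were chosen with earlier results of these data known. Values of some list members are not reported here.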

Additional observations from a re-analysis of the deposited data

Results flagged for a closer look

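Of the 169 genes named, 90 showed a strain difference at 6 weeks that differed from that at 3 weeks, against 39.7% of all genes. The test was limma's test of the interaction (adjusted p under 0.05). In 47 of these genes the fitted difference had the opposite sign, whether or not it passed at 6 weeks. Values are the difference at 6 weeks minus that at 3 weeks, in log2. Animals and slides differ between the ages, the SHR label is uncertain as described above, and the part of each was not tested. Agtrap, Cort, Serhl2, Vegfb and Pira2 went with the opposite label between the ages. Serhl2 differed from WKY by -1.88 for the SHR label at 3 weeks. At 6 weeks it differed by -0.095 for the SHR label and by -1.88 for the SHRSP label. The changes below are those of arrays with the label SHR.

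In 39 genes a called 3-week difference took the opposite sign at 6 weeks. The sign is that of the fitted value, whether or not the 6-week difference passed. Some 6-week differences were very small, such as -0.009 for Rbp4, -0.033 for Mcm2 and -0.036 for Slc6a13, against 2.68 for Or8b8. The change was 4.84 for Or8b8, -4.69 for Agtrap, 4.62 for Agtr1b, 4.51 for Slc45a4, 4.11 for Tnfsf8, 3.64 for Stfa2l1 and 2.77 for Etv3. It was 2.59 for Glra1, 2.18 for Kcnv2, 1.99 for Notch3, 1.70 for Wnk4, 1.39 for Apoh, 1.34 for Nos2 and 1.16 for Fosb. Further values were 0.92 for Cdkn1a, 0.87 for Ccl6, 0.80 for Dll4, 0.78 for Cdh5, 0.73 for Hcrt, 0.68 for Nr3c1 and -0.66 for Ppp1r14a. A change of 0.66 for Hif3a, 0.64 for P2ry12, -0.61 for Mag, -0.60 for Tsc22d3, -0.58 for Ptgds, -0.55 for Slc6a13 and -0.55 for Tm7sf2 was measured in addition. The change was 0.52 for Edn1, -0.50 for Ddah2, -0.50 for Galr2, 0.46 for Ednra, -0.43 for Pgf, 0.38 for Pnoc and -0.32 for Ece1. It was 0.32 for Hsd11b1, 0.32 for Vip, -0.28 for Mcm2 and -0.22 for Rbp4.

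Another 31 genes kept their sign with a smaller difference at 6 weeks. For Col3a1, Prdx6 and Tspan2 the 6-week difference was only 0.001, -0.005 and 0.006. The change was 1.79 for Serhl2, 1.64 for Cyp2c11, 1.01 for Ccl9, -0.83 for B3galt1, 0.80 for Serpina3n, -0.67 for Cebpd and 0.67 for Afp. It was -0.60 for Nfkbia, -0.56 for Ly75, -0.51 for Serpina4, 0.49 for Alb, -0.48 for Ddit4, -0.46 for Grp and -0.43 for Cldn11. Further values were -0.43 for Errfi1, -0.42 for Tspan2, -0.42 for Cat, -0.41 for Tor1b, -0.41 for Col3a1, -0.40 for Nfil3 and -0.40 for Slc2a1. A change of 0.40 for Ptgs2, 0.39 for Ciart, -0.37 for Mobp, -0.36 for Cyp11b1, 0.33 for Prdx6, -0.32 for Sstr3 and -0.27 for Klf9 was measured in addition. The change was 0.24 for Prkg2, -0.23 for Gal and -0.23 for Gstt1.

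In 7 genes the difference had the same sign and was larger at 6 weeks. The change was -1.51 for Cort, 0.66 for Adtrp, 0.56 for Acsm5, -0.41 for Endog, -0.40 for Ncaph, -0.35 for Acaa1a and -0.30 for Ptgr1.

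A further 9 genes were not called at 3 weeks. The change was -1.39 for Nppa, -0.68 for Cnp, -0.56 for Mog, 0.51 for Oxt, 0.50 for Fkbp5, -0.38 for Ace and 0.28 for Mas1. It was -0.27 for Nos1 and -0.22 for Tf.

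For the last 4 genes no array of one strain at 3 weeks was well above background, so the size of their change was not measured and the fitted values only describe the signal. The change was 9.43 for Vegfb, -2.47 for Pira2, -2.40 for Cma1 and 1.43 for Oxnad1.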

How the results depend on the processing

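The number of genes called in SHR against WKY at 3 weeks was 6119, of 21180, and it moved most with the slide and with the number of arrays in the fit. A fixed slide block gave 1571, a random slide block 3251, and the count was 385 on the arrays of slide 1 alone, 1770 in a fit of the 6 arrays and 3411 in a fit of the 9 arrays of 3 weeks, fits that hold fewer samples or residual degrees of freedom. With single arrays left out it ranged from 3111 to 7904. Other scalings, backgrounds, filters, probe choices and variance models gave between 5478 and 6355 calls. The share of called genes that were raised was 41.3%, 50.3% with median scaling and 50.4% with quantile normalization. Genes called for the interaction of strain and age numbered 8416, 5288 with slide as a random block and between 7183 and 9402 with single arrays left out; this term could not be fitted with slide as a fixed block or in the fits of fewer groups. With the replicate number as a replicate block 5305 and 7706 genes were called, and 4 of the 142 named calls were lost.

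Of the 142 named genes called, 140 kept their direction under every one of the 20 alternatives that tested them, and 33 also kept the call. The filter to probes well above background on all 6 arrays tested only 130 of the 142. Taking the median over a gene's probes turned Cdkn1a to 0.20 and Mobp to -0.45; their probes disagree. Slide 1 alone lost 106 of these calls, slide as a fixed block 52, and the scalings 2 each. Of 560 list counts under alternatives 435 were within 1.5 times the count given. These covered only part of the lists, and left out MHC, ion transport, replication, endothelium, clock and cholesterol synthesis among others. With single arrays left out, the raised count ranged from 2 to 10 for MHC (9 given) and from 2 to 9 for replication (7 given). The lowered count of ion transport ranged from 3 to 12 (8 given). Genes not well above background in a group have only bounds.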
